A study of Mus musculus with 9 samples.

Results

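The 36 genes described here encode the aminoacyl-tRNA synthetases, the enzymes that load each tRNA with its amino acid. They were chosen by name from the 24421 gene rows of the count table: 20 cytosolic enzymes and 16 mitochondrial enzymes, whose symbols end in 2. All 36 were found, and all 36 were among the 14513 genes with enough counts to be tested. The data are RNA-seq counts from D3 cells, a mouse embryonic stem cell line, in 3 groups of 3 libraries. The LAMP2A+DM-αKG group overexpressed LAMP2A and received DM-αKG, a cell-permeable methyl ester of the metabolite alpha-ketoglutarate, at 4 mM for 72 h. The LAMP2A group overexpressed LAMP2A, the lysosomal receptor of chaperone-mediated autophagy, without DM-αKG. The VT group stably carried the empty pCDH vector, again without DM-αKG. All groups were grown without feeder cells, in serum medium with LIF. The labels do not say whether the lines were single clones or whether the untreated groups received a vehicle. They also do not say that replicate libraries were made from different cultures, so a p-value here reflects the spread among libraries, and that spread may be technical.

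Synthetases fall into class I and class II, which have unrelated catalytic folds. In mammals 8 of the cytosolic genes listed here (Dars, Eprs, Iars, Kars, Lars, Mars, Qars and Rars) encode enzymes of the multisynthetase complex, held together by the scaffold proteins of Aimp1, Aimp2 and Eef1e1. Mitochondria use their own set of tRNAs, and the mitochondrial enzymes are made from nuclear genes. Gars and Kars supply both compartments from a single gene, and Eprs joins the enzymes for glutamate and proline in one protein. Uncharged tRNA activates the kinase GCN2 (Eif2ak4), which phosphorylates eIF2; this favours translation of the transcription factor ATF4, and many cytosolic synthetase genes are known ATF4 targets. MYC is also known to bind synthetase promoters.

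Libraries held 23636074 to 32809875 counts, and the lowest count of any synthetase gene in any library was 232 (Fars2). The Lamp2 row, which sums all splice forms of the gene, had 407, 403 and 403 CPM (counts per 1000000, scaled for library size) in LAMP2A libraries, against 57.5, 56.9 and 60.0 CPM in VT libraries. In LAMP2A+DM-αKG libraries Lamp2 was at 99.3, 95.3 and 96.9 CPM, below LAMP2A and above VT, so those libraries differed from LAMP2A in Lamp2 as well as in the treatment. The summed level of 10 pluripotency genes was 7250 to 7282 CPM in LAMP2A+DM-αKG, 1989 to 1995 CPM in LAMP2A and 8514 to 8889 CPM in VT; all 10 fell in LAMP2A against VT. Summed levels of markers of other cell types were highest in LAMP2A. The 8 markers of extraembryonic endoderm summed to 482 to 492, 2142 to 2159 and 266 to 279 CPM in LAMP2A+DM-αKG, LAMP2A and VT, with Afp at 0 in VT. The 8 of mesoderm and smooth muscle summed to 19.5 to 22.0, 2030.0 to 2069 and 22.4 to 24.5 CPM in the same order, the 8 of trophectoderm to 85.8 to 90.4, 1213 to 1227 and 66.5 to 72.0 CPM, with Elf5 at 0 outside LAMP2A. The 10 fibroblast markers summed to 7.02 to 10.2, 127.6 to 129 and 8.58 to 9.67 CPM, with Fap at 0 in LAMP2A and VT and Lum at 0 in VT. The 6 neural markers summed to 152.7 to 155, 336 to 346 and 130.01 to 135 CPM. Single neural markers went both ways in LAMP2A against VT, with 3 higher, 3 lower and a median log2 fold change of -0.12. Of the 8 fibroblast markers tested, 7 were higher and 1 lower in that comparison, where 43.0% of all genes tested rose and 42.1% fell. The pluripotency sum was lowest in LAMP2A, as most synthetase genes were (below), and the other marker sums were highest there. The part of these shifts in the synthetase results was not tested. In bulk RNA, fewer cells of a type and less RNA per cell cannot be told apart.

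The promoters of the synthetase genes were searched for the C/EBP-ATF response element that ATF4 binds, read as TGATGNAA on either strand (TTNCATCA on the other), in RefSeq windows of build GRCm38.p6 from 250 bases before to 50 bases after the transcript start. Of the 36 members 26 had such a window, 12 cytosolic and 14 mitochondrial. The element was in 5 of the 12 cytosolic windows and in 0 of the 14 mitochondrial ones, against 4.51% of 27025 genes. The 5 stretches that hold it are printed because 3 of these genes were among the 5 members with the largest changes in a comparison. Aars and Tars were so in LAMP2A against VT and in LAMP2A+DM-αKG against LAMP2A, and Yars only in the latter. Gars and Iars, which also hold it, had log2 fold changes of -0.48 and -0.38 in LAMP2A against VT. The cytosolic median there was -0.48. In LAMP2A+DM-αKG against LAMP2A they had 0.72 and 0.56, where the cytosolic median was 0.58. Aars2 and Farsb were also among the largest changes, and their windows lack the element. So were Nars and Cars, which had no window and could not be searched. A link between the element and the size of a change was not tested. Each stretch is written 5′ to 3′ along the gene, with the element in capitals.
Aars (chr8:111033694-111033891, plus strand): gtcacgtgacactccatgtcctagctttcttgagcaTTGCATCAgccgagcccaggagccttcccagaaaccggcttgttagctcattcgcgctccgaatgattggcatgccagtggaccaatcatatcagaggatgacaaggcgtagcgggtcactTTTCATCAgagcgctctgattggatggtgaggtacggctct
Tars (chr15:11399630-11399709, minus strand): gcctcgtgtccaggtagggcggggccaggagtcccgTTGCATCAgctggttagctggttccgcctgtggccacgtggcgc
Yars (chr4:129189870-129189949, plus strand): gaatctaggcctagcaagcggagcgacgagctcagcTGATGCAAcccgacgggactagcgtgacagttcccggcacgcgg
Gars (chr6:55037935-55038014, plus strand): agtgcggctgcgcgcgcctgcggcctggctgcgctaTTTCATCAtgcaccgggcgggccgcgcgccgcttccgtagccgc
Iars (chr13:49682101-49682179, plus strand): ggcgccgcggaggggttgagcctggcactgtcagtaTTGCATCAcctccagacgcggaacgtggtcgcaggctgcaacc
Aars held 2 copies, the first beginning 112 bases before the start and the other 9 bases after it. In Gars and Tars the element began 30 and 15 bases before the start, and in Yars and Iars 3 and 7 bases after it. Among 29 ATF4 target genes that are not synthetases and had a window, 10 held the element. The E-box CACGTG, which MYC and other factors bind, was in 4 of 12 cytosolic windows (Aars, Farsb, Iars and Tars), in 1 of 14 mitochondrial windows (Ears2) and in 8.09% of all genes. A match is a run of letters, and binding was not measured.

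**Figure D1:**
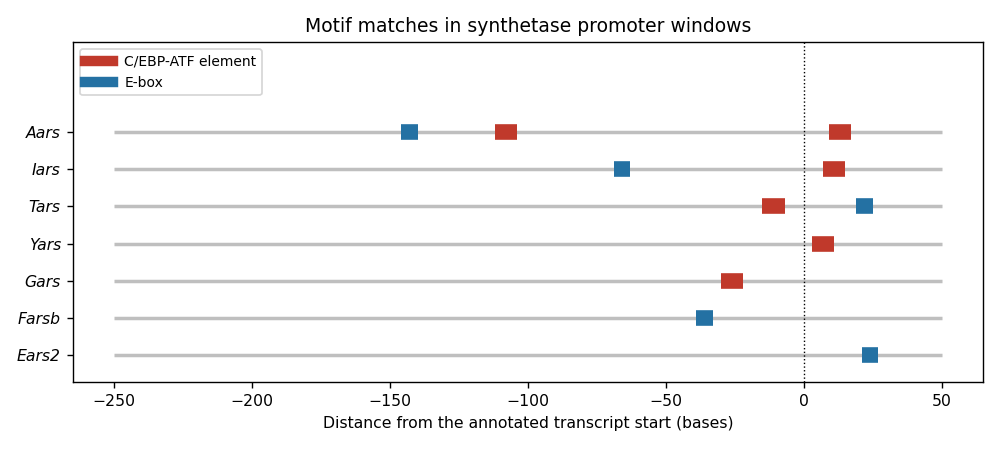
Position of the C/EBP-ATF element (red) and the E-box (blue) in the promoter windows of the 7 synthetase genes with a match; the x axis is the distance from the annotated transcript start in bases, and grey lines span the 300 bases searched. The elements of Gars and Tars lie 30 and 15 bases before the start, those of Yars and Iars just after it, and Aars has one on each side.

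Levels between genes are compared per kilobase of the principal transcript of GENCODE M21. The median cytosolic gene stood at 94.3 CPM per kilobase in LAMP2A+DM-αKG, 64.1 in LAMP2A and 92.9 in VT, and the median mitochondrial gene at 19.4, 12.8 and 20.9. Eprs and Nars were highest in VT (201 and 201 CPM per kilobase), a difference smaller than their spread between libraries, followed by Kars at 197. In LAMP2A the order changed, with Kars first (161 CPM per kilobase), Eprs at 145, Gars at 118 and Nars at 113. Cars was lowest of the cytosolic genes in every group, at 57.3, 31.6 and 53.1 CPM per kilobase in LAMP2A+DM-αKG, LAMP2A and VT. The lowest mitochondrial value was that of Mars2 (1.98, 1.30 and 2.13), whose principal transcript is 11.3 kilobases long. Summed over the 20 cytosolic genes, the level was 6831 ± 24.5 CPM in LAMP2A+DM-αKG, 4614 ± 12.0 CPM in LAMP2A and 6713 ± 109 CPM in VT (SD, n = 3 each). The 16 mitochondrial genes summed to 925 ± 37.98, 686 ± 46.5 and 876 ± 13.7 CPM. The mitochondrial sums include Lars2, described below, which varied far more between libraries than the other members. It ran from 94.1 to 147 CPM in LAMP2A+DM-αKG and from 74.1 to 156 CPM in LAMP2A. For both sums the LAMP2A libraries were the lowest and did not overlap either other group.

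**Figure D2:**
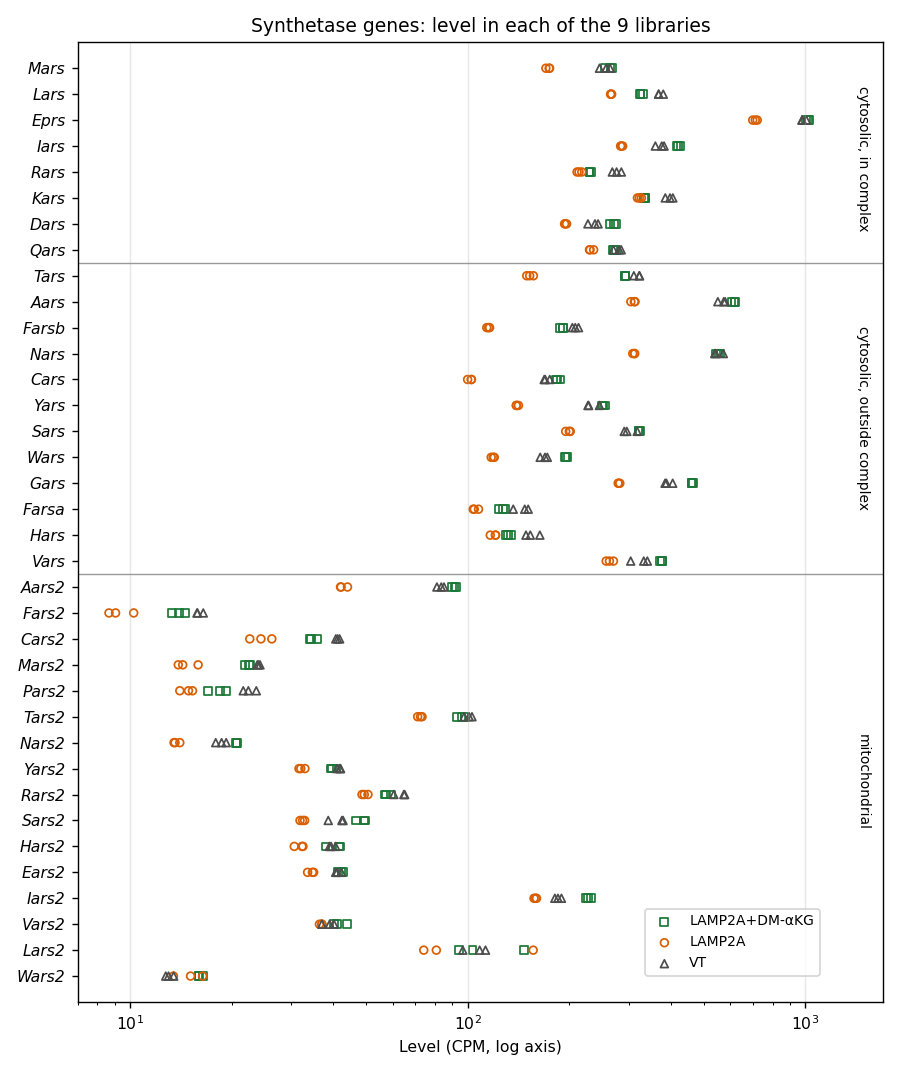
Level of each synthetase gene in CPM on a log axis, 1 point per library (LAMP2A+DM-αKG squares, LAMP2A circles, VT triangles), grouped by place in the cell. The LAMP2A circles lie left of both other groups in all 20 cytosolic genes, while Lars2 and Wars2 near the bottom have LAMP2A libraries that overlap them. How often other genes lie apart in this way was not counted.

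The first comparison sets LAMP2A against VT, cells with and without LAMP2A overexpression. All 20 cytosolic synthetase genes fell in LAMP2A cells against VT, where 42.1% of all genes tested fell and 43.0% rose. Log2 fold changes ran from -1.06 (Tars) to -0.26 (Qars) with a median of -0.48, and the median over all genes tested was 0.01. At a minimum of 1.5-fold, 7 of the 20 passed as lower and 0 as higher (19.2% and 27.6% of all genes did). Tars (GENCODE M21 on GRCm38, chr15:11382301-11399665), which charges threonine tRNA, had 149.6, 157 and 153 CPM in LAMP2A libraries, against 311, 323 and 322 CPM in VT libraries, a log2 fold change of -1.06 ± 0.030 (adjusted p = 6.01e-27). Aars (chr8:111033144-111057664), the alanine enzyme, which also hydrolyses tRNA mischarged with serine, had 304, 313 and 312 CPM in LAMP2A against 579, 574 and 551 CPM in VT, a change of -0.87 ± 0.029 (adjusted p = 1.73e-24). In both genes every LAMP2A library lay far below every VT library. Farsb (chr1:78417975-78488897) encodes the beta subunit of phenylalanyl-tRNA synthetase; it stood at 115, 116 and 114 CPM in LAMP2A and 204, 213 and 208 CPM in VT, -0.86 ± 0.030 (adjusted p = 6.18e-24) on the log2 scale. Its partner Farsa, the catalytic alpha subunit, changed by -0.46 ± 0.035 (adjusted p = 2.99e-14). Nars, the asparagine enzyme, had 312, 312 and 308 CPM in LAMP2A against 543, 572 and 539 CPM in VT, a change of -0.83 ± 0.030 (adjusted p = 1.17e-23). The smallest cytosolic changes were those of Qars and Dars, the enzymes for glutamine and aspartate. Qars had 230.3, 236 and 229 CPM in LAMP2A and 281, 285 and 270.2 CPM in VT, -0.26 ± 0.029 (adjusted p = 3.94e-10) on the log2 scale. Dars had 196, 194 and 194 CPM in LAMP2A and 227, 238 and 243 CPM in VT, -0.28 ± 0.030 (adjusted p = 2.82e-10) on that scale. For all 20 genes the LAMP2A and VT libraries did not overlap, but the share of all genes tested without overlap was not counted. Aars shares 14.3% of its exon length with Exosc6 on the same strand, and Farsb 9.5% with Sgpp2 on the opposite strand.

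Both of the smallest changes belong to enzymes of the multisynthetase complex. The 8 genes of the complex had log2 fold changes from -0.56 (Mars) to -0.26, with a median of -0.38, and 0 of 8 passed at 1.5-fold. The 12 cytosolic genes outside it ran from -1.06 to -0.31 (Vars), with a median of -0.67, and 7 of 12 passed at 1.5-fold. Of all genes tested 19.2% fell by that much, so 0 of 8 in so small a set says little. This split was made after the values were seen, and the ranges of the sets overlap; it is a description, with no test of the difference. By catalytic class the medians were closer, -0.54 for 10 class II genes and -0.48 for 9 class I genes, with Eprs, which has a domain of each class, left out.

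Of the 16 mitochondrial genes, 13 fell in LAMP2A against VT, 1 rose (Wars2) and 2 did not pass (Lars2 and Vars2), with a median log2 fold change of -0.36. By at least 1.5-fold 5 fell, as did 19.2% of all genes tested. Aars2 (chr17:45506841-45520843), the mitochondrial alanine enzyme, had 42.2, 42.0 and 44.0 CPM in LAMP2A libraries, against 83.5, 85.1 and 81.1 CPM in VT libraries, -0.96 ± 0.037 (adjusted p = 9.11e-23) on the log2 scale. It was the second lowest of all 36, and its groups were far apart. Ears2, which loads glutamate also onto mitochondrial glutamine tRNA, had 33.6, 35.0 and 34.7 CPM in LAMP2A and 41.0, 42.3 and 40.6 CPM in VT, a change of -0.26 ± 0.042 (adjusted p = 7.82e-07). Iars2, the isoleucine enzyme, had 159, 157 and 159.9 CPM in LAMP2A and 181, 185 and 189.5 CPM in VT, -0.22 ± 0.030 (adjusted p = 2.27e-08) on the log2 scale. Iars2 shares 22.9% of its exon length with Rab3gap2 on the opposite strand, and the strand setting of the counting is not given in the sources used here. Wars2 (chr3:99141068-99239186), the tryptophan enzyme, had 15.1, 16.4 and 13.4 CPM in LAMP2A and 13.0, 12.8 and 13.5 CPM in VT, a change of 0.20 ± 0.067 (adjusted p = 0.00563). Its lowest LAMP2A library lay just below the highest VT library, and without LAMP2A replicate 2 it no longer passed (log2 fold change 0.13, adjusted p = 0.0888). Vars2, the valine enzyme, changed by -0.07 ± 0.045 (adjusted p = 0.123), and without VT replicate 3 it passed as lower (-0.11, adjusted p = 0.0326).

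**Figure D3:**
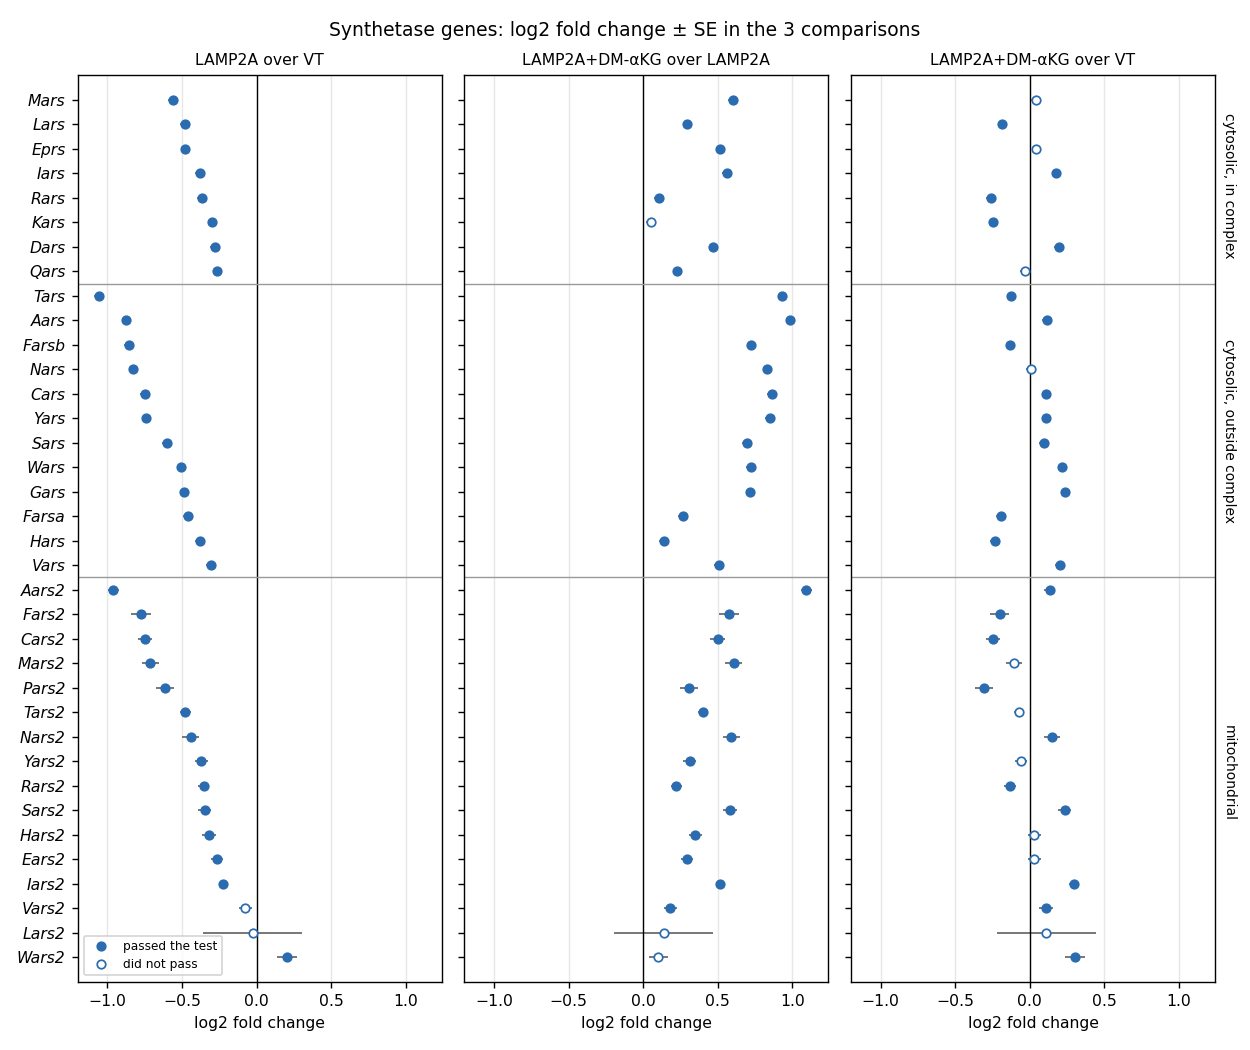
Log2 fold change of each synthetase gene in the 3 comparisons, with SE as horizontal bars; filled points passed at an adjusted p under 0.05. In the left panel 33 points are filled left of 0, in the middle panel 33 are filled right of 0, and in the right panel all lie between -0.31 and 0.30.

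The second comparison sets LAMP2A+DM-αKG against LAMP2A. The groups differ in the treatment and also in the level of Lamp2, given above, and the parts of these cannot be told apart. It uses the same LAMP2A libraries as the first, so their values enter both, and the comparisons are not independent. Of the 20 cytosolic genes 19 rose in LAMP2A+DM-αKG against LAMP2A and 0 fell, where 41.1% of all genes tested rose and 42.1% fell. The median log2 fold change was 0.58, against -0.00 over all genes tested, and 10 of the 20 rose and 0 fell by at least 1.5-fold (16.4% and 25.4% of all genes did). Of the 16 mitochondrial genes 14 rose, 0 fell and 3 passed at 1.5-fold, with a median of 0.38. Aars2 had the highest change of the 36, with 92.2, 89.9 and 91.3 CPM in LAMP2A+DM-αKG against 42.2, 42.0 and 44.0 CPM in LAMP2A, 1.09 ± 0.037 (adjusted p = 1.63e-24) on the log2 scale. Aars followed, at 619.5, 605 and 617 CPM in LAMP2A+DM-αKG and 304, 313 and 312 CPM in LAMP2A, a change of 0.99 ± 0.029 (adjusted p = 5.06e-26). Tars had 293, 292 and 292 CPM in LAMP2A+DM-αKG and 149.6, 157 and 153 CPM in LAMP2A, a change of 0.93 ± 0.030 (adjusted p = 3.22e-25). In all 3 genes every treated library lay far above every LAMP2A library. Cars, the cysteine enzyme, had 188, 182 and 184 CPM in LAMP2A+DM-αKG and 102, 99.9 and 103 CPM in LAMP2A, 0.86 ± 0.031 (adjusted p = 1.26e-23) on the log2 scale. Yars, the tyrosine enzyme, had 252, 249.6 and 255 CPM in LAMP2A+DM-αKG and 139, 139 and 141 CPM in LAMP2A, 0.85 ± 0.032 (adjusted p = 3.81e-23) on that scale. Neither gene had a library of one group near the range of the other.

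At the other end stood Kars, Rars and Hars, the enzymes for lysine, arginine and histidine. Kars had 336, 332 and 334 CPM in LAMP2A+DM-αKG and 322, 318 and 327 CPM in LAMP2A, a log2 fold change of 0.05 ± 0.029 (adjusted p = 0.102); the groups did not overlap, and the gene passed when only the 6 libraries of these groups were fitted (0.05, adjusted p = 0.00435), without VT replicate 2 (adjusted p = 0.0249) and without VT replicate 3 (adjusted p = 0.0443). Rars had 229.5, 229 and 232 CPM in LAMP2A+DM-αKG and 218, 214 and 211 CPM in LAMP2A, 0.11 ± 0.030 (adjusted p = 0.00168) on the log2 scale. Hars had 134, 132 and 129.8 CPM in LAMP2A+DM-αKG and 121, 121 and 117 CPM in LAMP2A, 0.14 ± 0.034 (adjusted p = 0.000309) on that scale. As ratios these were 1.04 for Kars, 1.08 for Rars and 1.10 for Hars. Qars had 275, 269 and 271 CPM in LAMP2A+DM-αKG against the LAMP2A values given above, a change of 0.23 ± 0.029 (adjusted p = 1.06e-08). Among mitochondrial genes the smallest rises that passed were those of Vars2 and Rars2. Vars2 had 40.1, 44.0 and 41.0 CPM in LAMP2A+DM-αKG and 36.4, 37.0 and 37.0 CPM in LAMP2A, 0.18 ± 0.045 (adjusted p = 0.000379) on the log2 scale. Rars2, the mitochondrial arginine enzyme, had 56.9, 59.3 and 57.4 CPM in LAMP2A+DM-αKG and 49.4, 50.7 and 48.6 CPM in LAMP2A, 0.22 ± 0.039 (adjusted p = 3.8e-06) on that scale. The groups did not overlap in either gene. Wars2 did not pass, at 0.10 ± 0.064 (adjusted p = 0.147), and without LAMP2A replicate 2 it did (0.17, adjusted p = 0.0269). Lars2 did not pass either and is described below. The genes of the multisynthetase complex had a median of 0.38, with 1 of 8 (Mars) past 1.5-fold, and the 12 outside it a median of 0.72, with 9 of 12 past 1.5-fold. Of all genes tested 16.4% rose by that much, a share near that of the complex. As above, the split was made after the values were seen and was not tested. Class I and class II medians were 0.56 and 0.71.

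The third comparison sets LAMP2A+DM-αKG against VT and shares libraries with both others. Here the synthetase genes went both ways. Of the 20 cytosolic genes 9 were higher, 7 lower and 4 did not pass (Eprs, Mars, Nars and Qars), where 29.3% of all genes tested were higher and 29.3% lower. Of the 16 mitochondrial genes 6 were higher, 4 lower and 6 did not pass (Ears2, Hars2, Lars2, Mars2, Tars2 and Yars2). None of the 36 passed at 1.5-fold in either direction, where 8.58% of all genes were higher and 6.30% lower by that much, and the medians were 0.04 for cytosolic and 0.03 for mitochondrial genes. Without LAMP2A+DM-αKG replicate 2 the mitochondrial median was -0.03. Wars2 was the highest of those that passed, with 16.4, 15.9 and 16.03 CPM in LAMP2A+DM-αKG against 13.0, 12.8 and 13.5 CPM in VT, 0.30 ± 0.068 (adjusted p = 0.000252) on the log2 scale. Iars2 had 227, 231 and 224 CPM in LAMP2A+DM-αKG and 181, 185 and 189.5 CPM in VT, a change of 0.29 ± 0.030 (adjusted p = 1.87e-10). Gars, the glycine enzyme of both compartments, had 460.1, 461 and 464 CPM in LAMP2A+DM-αKG and 384, 405 and 388 CPM in VT, 0.23 ± 0.029 (adjusted p = 1.3e-08) on the log2 scale. All treated libraries of these genes lay above all VT libraries. Sars2, the mitochondrial serine enzyme, had 49.4, 49.7 and 46.7 CPM in LAMP2A+DM-αKG and 42.4, 42.7 and 38.6 CPM in VT, a change of 0.23 ± 0.044 (adjusted p = 2.93e-05). Wars, the cytosolic tryptophan enzyme, had 194, 196 and 198 CPM in LAMP2A+DM-αKG and 172, 169 and 164 CPM in VT, a change of 0.22 ± 0.030 (adjusted p = 1.32e-07). In both genes the groups did not overlap.

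Lowest in LAMP2A+DM-αKG against VT was Pars2, the mitochondrial proline enzyme, with 19.2, 17.0 and 18.5 CPM in LAMP2A+DM-αKG and 23.6, 22.4 and 21.6 CPM in VT, -0.31 ± 0.058 (adjusted p = 3.02e-05) on the log2 scale. Rars had 229.5, 229 and 232 CPM in LAMP2A+DM-αKG and 268, 285 and 276 CPM in VT, a change of -0.26 ± 0.030 (adjusted p = 2.32e-09). Cars2, the mitochondrial cysteine enzyme, had 35.8, 34.3 and 34.1 CPM in LAMP2A+DM-αKG and 41.7, 41.2 and 40.7 CPM in VT, a change of -0.25 ± 0.047 (adjusted p = 3.54e-05). These genes had every treated library below every VT library. Kars had 336, 332 and 334 CPM in LAMP2A+DM-αKG and 397, 405 and 385 CPM in VT, -0.24 ± 0.029 (adjusted p = 6.39e-09) on the log2 scale. Hars had 134, 132 and 129.8 CPM in LAMP2A+DM-αKG and 153, 164 and 149 CPM in VT, -0.24 ± 0.034 (adjusted p = 3.39e-07) on that scale. Kars, Rars and Hars, the cytosolic genes that differed least between LAMP2A+DM-αKG and LAMP2A, were thus still below VT. Hars shares 8.0% of its exon length with Hars2 on the opposite strand. Calls near the threshold moved with single libraries. Vars2 (0.11 ± 0.045, adjusted p = 0.0409) did not pass by the DESeq2 Wald test (adjusted p = 0.094) or without VT replicate 1 (0.056), VT replicate 3 (0.18), LAMP2A replicate 2 (0.0504), LAMP2A+DM-αKG replicate 2 (0.245) or LAMP2A+DM-αKG replicate 3 (0.053). Nars2 (0.15 ± 0.054, adjusted p = 0.0196) did not pass by the DESeq2 Wald test (adjusted p = 0.0758) or without VT replicate 1 (0.0726), and Sars (0.09 ± 0.031, adjusted p = 0.0105) did not without VT replicate 3 (0.0541). Mars passed as higher without VT replicate 2 (0.06, adjusted p = 0.0382), and Tars2 as lower without VT replicate 1 (-0.09, adjusted p = 0.0236) or LAMP2A+DM-αKG replicate 2 (-0.09, adjusted p = 0.0499).

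Between the members, 16 amino acids had a cytosolic and a mitochondrial form, which gave 17 pairs because phenylalanine has the subunits Farsa and Farsb. In LAMP2A against VT the cytosolic form had the larger absolute log2 fold change in 13 of 17 pairs, in LAMP2A+DM-αKG against LAMP2A in 12 of 17, and in LAMP2A+DM-αKG against VT in 7 of 17. No test was made over pairs, and they are not independent, since Eprs was paired with both Ears2 and Pars2 and Fars2 with both Farsa and Farsb. The 13 include cysteine, with -0.751 for Cars and -0.748 for Cars2. They also include leucine, where the SE of Lars2 was 0.332. For alanine the forms were alike, with -0.96 for Aars2 and -0.87 for Aars in LAMP2A against VT, and 1.09 and 0.99 in LAMP2A+DM-αKG against LAMP2A. Cysteine also had like values in LAMP2A against VT (-0.75 for Cars2 and -0.75 for Cars), but in LAMP2A+DM-αKG against LAMP2A Cars2 changed by 0.50 and Cars by 0.86. The forms for tryptophan were farthest apart, at 0.20 for Wars2 and -0.50 for Wars in LAMP2A against VT. For threonine Tars2 changed by -0.48 and Tars by -1.06 in that comparison. In LAMP2A+DM-αKG against LAMP2A the mitochondrial form changed by more in 5 of 17 pairs. For histidine and arginine, Hars2 (0.35) and Rars2 (0.22) rose by more than Hars (0.14) and Rars (0.11). Fars2 (0.58) rose by more than Farsa (0.27), though by less than Farsb (0.73). The others were alanine, given above, and methionine by little, with 0.61 for Mars2 and 0.60 for Mars.

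**Figure D4:**
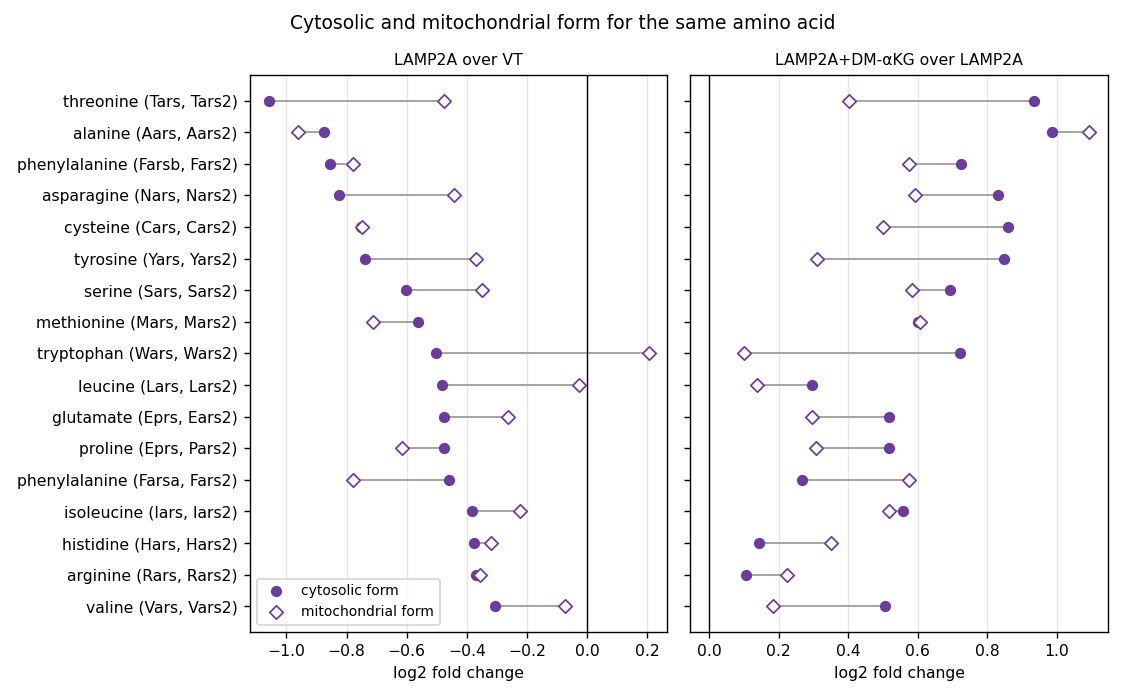
Log2 fold change of the cytosolic (filled) and mitochondrial (open) synthetase for the same amino acid, 17 pairs, in LAMP2A against VT and in LAMP2A+DM-αKG against LAMP2A. A line joins the forms; it is short for alanine and long for tryptophan.

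The proteins that work with synthetases were read from lists, by the same fits. Their counts stand against backgrounds over all genes tested of 42.1% lower and 43.0% higher in LAMP2A against VT, 41.1% higher and 42.1% lower in LAMP2A+DM-αKG against LAMP2A, and 29.3% higher and 29.3% lower in LAMP2A+DM-αKG against VT; with so many genes called, small lists can hold many calls. Where 3 log2 fold changes are given for a gene below, they are in this order of comparisons. Of the 3 scaffold genes of the multisynthetase complex and 4 subunits of elongation factor eEF1, which carries charged tRNA to the ribosome, 6 of 7 fell and 0 rose in LAMP2A against VT, 6 rose and 0 fell in LAMP2A+DM-αKG against LAMP2A, and 3 were lower and 0 higher in LAMP2A+DM-αKG against VT. Eef1e1, the scaffold also called AIMP3, averaged 85.1 ± 1.39 CPM in LAMP2A+DM-αKG, 55.7 ± 1.25 CPM in LAMP2A and 88.3 ± 2.96 CPM in VT (SD, n = 3 each), with log2 fold changes of -0.67, 0.61 and -0.05 (not passed). Those of the scaffold Aimp1 were -0.40, 0.27 and -0.13, and those of the scaffold Aimp2 were -0.18, -0.01 (not passed) and -0.19. Eef1a1, the subunit that binds charged tRNA, had -0.23, 0.22 and -0.01 (not passed). Of its exchange factors, Eef1d had -0.30, 0.16 and -0.14 and Eef1b2 had -0.19, 0.15 and -0.03 (not passed).

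Mitochondria make glutaminyl-tRNA by amidation, with Gatb, Gatc and Qrsl1, and Mtfmt formylates the initiator. Of these 4 genes 3 fell and 0 rose in LAMP2A against VT, 3 rose and 1 fell in LAMP2A+DM-αKG against LAMP2A, and 1 was higher and 1 lower in LAMP2A+DM-αKG against VT. The log2 fold changes were -0.90, 0.77 and -0.13 for Gatb and -0.72, 0.75 and 0.03 (not passed) for Qrsl1. Mtfmt had -0.40, 0.56 and 0.16, and Gatc had 0.06 (not passed), -0.14 and -0.07 (not passed). In the list for selenocysteine, the amino acid built on its tRNA, 6 of 6 fell in LAMP2A against VT, 5 rose and 0 fell in LAMP2A+DM-αKG against LAMP2A, and 1 was higher and 3 lower in LAMP2A+DM-αKG against VT. Sephs2, which makes the selenium donor, stood at 117 ± 2.14, 85.0 ± 0.553 and 202 ± 5.00 CPM in LAMP2A+DM-αKG, LAMP2A and VT, with log2 fold changes of -1.25, 0.46 and -0.79. Pstk, which phosphorylates serine on this tRNA, had -0.39, 0.82 and 0.43. The elongation factor gene Eefsec had -0.81, 0.49 and -0.32, Secisbp2 had -0.48, 0.41 and -0.07 (not passed) and Sephs1 had -0.09, 0.01 (not passed) and -0.08.

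Of 7 proofreading and recycling genes 5 fell and 1 rose in LAMP2A against VT, 5 rose and 1 fell in LAMP2A+DM-αKG against LAMP2A, and 2 were lower and 0 higher in LAMP2A+DM-αKG against VT. Aarsd1, an editing enzyme for alanyl-tRNA, averaged 77.0 ± 1.90, 49.0 ± 1.58 and 79.7 ± 4.26 CPM in LAMP2A+DM-αKG, LAMP2A and VT, with log2 fold changes of -0.70, 0.65 and -0.05 (not passed). Prorsd1 had -0.85, 0.67 and -0.18, and the deacylase genes Dtd1 and Dtd2 had -0.17, 0.29 and 0.12 (not passed) and -0.31, 0.24 and -0.08 (not passed). Ptrh2, a peptidyl-tRNA hydrolase, had -0.02 (not passed), -0.23 and -0.26, and Ankrd16, a partner of alanyl-tRNA synthetase, had 0.19, -0.09 (not passed) and 0.10 (not passed). Of 11 genes of tRNA export and maturation 7 fell and 2 rose in LAMP2A against VT, 6 rose and 2 fell in LAMP2A+DM-αKG against LAMP2A, and 1 was higher and 4 lower in LAMP2A+DM-αKG against VT. Xpot, the nuclear exporter of tRNA, averaged 282 ± 1.80, 163 ± 0.836 and 265 ± 6.40 CPM in LAMP2A+DM-αKG, LAMP2A and VT, with log2 fold changes of -0.70, 0.79 and 0.09. The exporter Xpo5 had -0.19, 0.04 (not passed) and -0.15. Elac2, which trims the end of precursor tRNA, had -0.79, 0.57 and -0.22, and the RNA kinase gene Clp1 had -0.63, 0.34 and -0.29. The splicing endonuclease subunits Tsen15 and Tsen34 went the other way in LAMP2A, with 0.65, -0.65 and -0.00 (not passed) for Tsen15 and 0.09, -0.40 and -0.31 for Tsen34.

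Atf4 mRNA averaged 451 ± 1.65 CPM in LAMP2A+DM-αKG, 260.4 ± 6.07 CPM in LAMP2A and 382 ± 16.9 CPM in VT, with log2 fold changes of -0.55 ± 0.031 (adjusted p = 6.89e-18) in LAMP2A against VT, 0.79 ± 0.031 (adjusted p = 2e-22) in LAMP2A+DM-αKG against LAMP2A and 0.24 ± 0.031 (adjusted p = 4.19e-08) in LAMP2A+DM-αKG against VT. The ATF4 protein was not measured. Of the list of 34 genes made up of Atf4 and ATF4 targets that are not synthetases, 21 fell and 10 rose in LAMP2A against VT (42.1% and 43.0% of all genes did), with a median log2 fold change of -0.44. In LAMP2A+DM-αKG against LAMP2A 27 rose and 3 fell (41.1% and 42.1% of all genes did), with a median of 0.75. In LAMP2A+DM-αKG against VT 28 were higher and 5 lower (29.3% and 29.3% of all genes were), with a median of 0.42. Shmt2, of mitochondrial one-carbon metabolism, averaged 435 ± 2.82, 132 ± 3.59 and 312 ± 6.05 CPM in LAMP2A+DM-αKG, LAMP2A and VT, with log2 fold changes of -1.25, 1.73 and 0.48. Mthfd2 of the same pathway had -1.25, 1.69 and 0.44, Psat1 of serine synthesis had -1.06, 1.30 and 0.24 and Trib3, an inhibitor of ATF4, had -1.40, 1.96 and 0.56. All 4 were lowest in LAMP2A and highest in LAMP2A+DM-αKG. The transporter gene Slc7a3, for basic amino acids, and Cth, which makes cysteine, also fell in LAMP2A but remained below VT in LAMP2A+DM-αKG, with -1.70, 1.09 and -0.61 for Slc7a3 and -1.56, 1.26 and -0.30 for Cth. Other genes of the list rose in LAMP2A against VT. Ddit4, an inhibitor of mTORC1, had 1.62, -0.36 and 1.26, and the transcription factor gene Atf5 had 0.93, 0.40 and 1.32. Phgdh, which begins serine synthesis, had 0.45, 0.42 and 0.86, and the lipoprotein receptor gene Vldlr had 1.81, 0.13 (not passed) and 1.94. Against VT, the list in LAMP2A+DM-αKG was mostly higher, whereas the synthetase genes were split 15 higher and 11 lower; no test compared the lists.

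A list of 11 genes holds the eIF2 kinases, eIF2 subunits, subunits of its phosphatase, and the GCN2 regulators Gcn1l1 and Impact. Of these 7 fell and 3 rose in LAMP2A against VT, 7 rose and 2 fell in LAMP2A+DM-αKG against LAMP2A, and 2 were higher and 5 lower in LAMP2A+DM-αKG against VT, against the shares of all genes given above. The 3 that rose in LAMP2A were Gcn1l1 (0.25), Impact (0.19) and the kinase gene Eif2ak2 (0.33). Eif2s2, the beta subunit of eIF2, averaged 500.4 ± 18.4, 294 ± 3.55 and 603 ± 33.0 CPM in LAMP2A+DM-αKG, LAMP2A and VT, with log2 fold changes of -1.04, 0.77 and -0.27. The alpha subunit gene Eif2s1 had -0.58, 0.34 and -0.24. Among kinase genes, Eif2ak4 had -0.19, 0.46 and 0.27 and Eif2ak1 had -0.51, 0.30 and -0.21. Ppp1r15b, of the phosphatase, had -0.53, 0.49 and -0.05 (not passed), and Impact had 0.19, -0.36 and -0.18.

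Of 6 genes of the MYC family 3 rose and 2 fell in LAMP2A against VT, 0 rose and 4 fell in LAMP2A+DM-αKG against LAMP2A, and 0 were higher and 3 lower in LAMP2A+DM-αKG against VT. Myc moved against the synthetase genes in the first 2 comparisons, at 17.1 ± 0.624 CPM in LAMP2A+DM-αKG, 62.0 ± 2.43 CPM in LAMP2A and 36.8 ± 0.919 CPM in VT, with log2 fold changes of 0.75, -1.87 and -1.11. Mycl had 1.36, -1.43 and -0.08 (not passed). Mycn, which had higher CPM than Myc in each group without scaling for length, had 0.01 (not passed), 0.05 (not passed) and 0.06 (not passed). The partner gene Max had -0.21, 0.02 (not passed) and -0.19, and the antagonists Mnt and Mxd1 had 0.25, -0.24 and 0.01 (not passed) and -0.21, -0.29 and -0.50. The proteins of this family were not measured, and a link to the synthetase genes was not tested.

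Lars2, the mitochondrial leucine enzyme (chr9:123366927-123462666, GRCm38), stood apart from the other members in its spread. It had 103, 147 and 94.1 CPM in LAMP2A+DM-αKG libraries, 74.1, 156 and 80.7 CPM in LAMP2A and 108, 113 and 96.7 CPM in VT. Replicate 2 was the highest in each group, and the LAMP2A libraries had a coefficient of variation of 44.0%, where the other 35 had at most 9.90% in any group. The log2 fold changes were -0.03 ± 0.332 in LAMP2A against VT (adjusted p = 0.946), 0.14 ± 0.330 in LAMP2A+DM-αKG against LAMP2A (adjusted p = 0.715) and 0.11 ± 0.334 in LAMP2A+DM-αKG against VT (adjusted p = 0.805). Rn45s, the row of the 45S ribosomal RNA precursor, had 1159.6, 1762 and 1085 CPM in LAMP2A+DM-αKG, 580.3, 1516 and 632 CPM in LAMP2A and 805, 972 and 726 CPM in VT. The row Mir6236 had 33.8, 55.0 and 28.8 CPM in LAMP2A+DM-αKG, 23.4, 65.7 and 26.4 CPM in LAMP2A and 34.7, 37.7 and 23.4 CPM in VT. Both rows were also highest in replicate 2 of each group. Ranked by deviation from the group mean among 10706 genes, Mir6236, Rn45s and Lars2 were 1, 2 and 3 in LAMP2A replicate 2, and 1, 2 and 5 in LAMP2A+DM-αKG replicate 2. Without LAMP2A replicate 2 the change in LAMP2A against VT was -0.46 (adjusted p = 0.0983). Without both of these libraries it was -0.46 in LAMP2A against VT (adjusted p = 5.44e-07), 0.35 in LAMP2A+DM-αKG against LAMP2A (adjusted p = 5.62e-05) and -0.10 in LAMP2A+DM-αKG against VT (adjusted p = 0.141). The libraries were left out because Lars2 itself was high in them, so these values do not support a change in Lars2. The part of ribosomal RNA in the Lars2 counts was not tested.

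**Figure D5:**
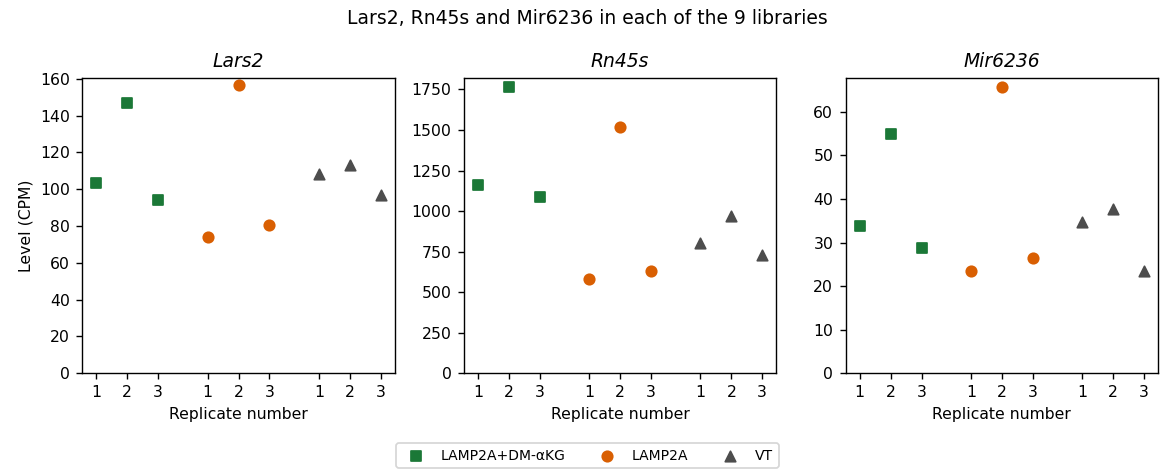
Level in CPM of Lars2, Rn45s and Mir6236 in each library, from left to right LAMP2A+DM-αKG, LAMP2A and VT, with replicate numbers on the x axis. Replicate 2 is the highest point of each group in all 3 panels; in LAMP2A it stands at 156 CPM for Lars2, where the other libraries have 74.1 and 80.7 CPM.

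The authors' deposited table for LAMP2A against VT lists all 36 synthetase genes, with 1 higher, 33 lower and Lars2 and Vars2 not past an adjusted p of 0.05, the call made here for 36 of 36. In the authors' deposited table for LAMP2A+DM-αKG against LAMP2A 34 were higher and Lars2 and Wars2 did not pass, the call made here for 35 of 36, Kars being the exception.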

How the data were processed

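The authors deposited raw counts per gene symbol for 9 libraries, made with STAR 2.7.1, HTSeq 0.11.2 and the build mm10 (GRCm38) per the submitters' processing notes. Neither the annotation nor the strand option of the counting is given in the sources used here. The authors also deposited DESeq2 tables that hold, per the file headers, a mean signal, log2 fold changes with SE, a test score and p-values; log2 fold changes, their SE and adjusted p-values of members were read from them. The quasi-likelihood test of edgeR 4.0.16 (R 4.3.3; filterByExpr, TMM, robust glmQLFit) used one model of the 3 group means with 6 residual degrees of freedom. The threshold was an adjusted p (Benjamini-Hochberg, over 14513 genes) of 0.05. CPM use library totals times TMM factors; SE is |log2 fold change| divided by the root of F. With a common biological coefficient of variation of 2.74%, small changes passed. The code was tested on simulated data; its pass mark was loosened after failing at 1.5-fold and again at 1.2-fold, where genes with few counts were missed, and the fit was left as it was. Members and lists were chosen with earlier results of these data known. Chosen after seeing values were the 1.5-fold minimum, the splits by complex and class, principal transcript lengths, Rn45s, Mir6236 and the joint removal of the replicates numbered 2. By rule, each comparison names the 5 members highest and the 5 lowest in log2 fold change that passed, and each list up to 4 genes of smallest p that passed; Lars2, Farsa, Atf4, Eif2ak2, Gcn1l1 and Mycn were added after their values were seen. Another 16 settings were run, including DESeq2 1.42.0.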

Additional observations from a re-analysis of the deposited data

How the results depend on the processing

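Of 16 alternative settings, 9 left out a library each and 1, chosen after seeing the data, left out replicate 2 of LAMP2A and of LAMP2A+DM-αKG together. In LAMP2A against VT the cytosolic counts stayed at 20 lower and 0 higher in each setting, and no member or named list gene that passed changed direction in any. Leaving out single libraries gave 0 to 1 mitochondrial genes higher in LAMP2A against VT, with mitochondrial medians from -0.4211 to -0.3516 in that comparison, 0.3645 to 0.4444 in LAMP2A+DM-αKG against LAMP2A, and -0.0305 to 0.0592 in LAMP2A+DM-αKG against VT, where the sign turned without LAMP2A+DM-αKG replicate 2. Without both replicates numbered 2, 0 mitochondrial genes were higher in LAMP2A against VT, and the mitochondrial medians were -0.4213 in LAMP2A against VT and -0.0309 in LAMP2A+DM-αKG against VT, a reversed sign; fewer samples were fitted, and the cause was not tested. A median was counted as moved when it shifted by more than the spread of medians between replicates (0.0193 for mitochondrial genes), a rule set after seeing values. At least 1 setting changed the call of 3, 3 and 5 of the 36 members in the 3 comparisons, in the order of the report.

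Same-numbered libraries of different groups deviated together with r between -0.0552 and 0.0563 over 9 pairs. Differently numbered libraries gave -0.0668 to 0.0755 over 18 pairs, so no pairing by replicate number was seen over the genes as a whole. Such an r cannot show whether same-numbered libraries shared a step that touches few genes, and this was not tested. Lars2, Rn45s and Mir6236 were highest under the same replicate number in each group, as given above. With the replicate number as a block, the counts were the same in all 3 comparisons (20 cytosolic and 13 mitochondrial genes lower in LAMP2A against VT). Libraries of a group differed by more than sampling noise, with chi-square per degree of freedom from 1.19 to 5.66, so none were merged. The lowest count of a member in any library was 232 (Fars2), and depth was not varied. Genes that share exons with a neighbour on the opposite strand are less certain because the strand setting is unknown. Aars is less certain whatever the setting, because it shares exons with Exosc6 on the same strand.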
